A study of Homo sapiens with 8 samples.

Results

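Chromosome 15 was examined as the set of all genomic windows on that chromosome outside an interval of 15q14 from 38.5 to 40.2 Mb (hg19), which was left out together with every window that touches it. Leaving the interval out lowered the count of windows with higher signal, as given below. The members were set by position, but with earlier results of these data known. They were 9055 of the 278316 windows of 100 kb, spread over 9 overlapping sets that are shifted by 10 kb, so that 1 set tiles the chromosome with 1006 or 1007 windows. The 9 sets of 50 kb windows held 18127 members of 556938.

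The windows carry SON TSA-seq signal from 786-O, a human clear cell renal carcinoma line grown in RPMI medium with 10% serum under atmospheric oxygen. PT2399, which keeps HIF-2α from pairing with ARNT, was given at 2 µM for 3 h, and DMSO vehicle was given for the same time. Each treatment had 2 SON pulldown libraries and 2 input libraries, and no allele, transgene or other agent separates the groups. Groups follow the library titles, which in 4 of the 8 libraries differ from what the antibody or treatment field states. Whether the 2 replicates came from separate cultures is not stated.

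SON is a scaffold protein of nuclear speckles, bodies rich in splicing factors that lie between the chromosomes. In TSA-seq a peroxidase on the SON antibody makes tyramide-biotin radicals that spread a short way and mark nearby DNA, so that DNA close to speckles is pulled down more. Gene-dense, active chromatin is known to lie nearer to speckles, and gene-poor chromatin at the nuclear edge lies far from them. Chromosome 15 is acrocentric: its short arm is made of satellite and ribosomal repeats that are not assembled in hg19. Its long arm starts with an imprinted domain with GABA receptor genes and ends in gene-dense bands that alternate with long gene-poor ones. A pulldown of many cells cannot tell a small shift in every cell from a large shift in some.

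Values are log2 concentrations, the authors' mean per treatment for each window, and every change is PT2399 minus DMSO on that log2 scale. A window counted as measured where both concentrations were at least 2, and as at the floor where the mean concentration was below 0. The lowest concentrations in the whole series were -0.11 for PT2399 and -0.07 for DMSO. No value per library was used here, so the depth of the libraries is unknown and no spread between replicates can be given. The range over the 9 sets, given below, shows how far a value depends on where the windows start; the sets share their reads and are not replicates.

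The deposited list of genes at lower windows named 5 chromosome 15 genes at both window sizes, and the starts of 4 of them are shown here because they go with the measured lower regions of lowest FDR, at 90650001 and 43500001, described below. TGM5 and TGM7 encode transglutaminases, which cross-link proteins. SEMA4B encodes a membrane semaphorin, GDPGP1 a phosphorylase of GDP-sugars and CIB1 a calcium-binding and integrin-binding protein. The sequences are from RefSeq (GRCh38.p14, another build than that of the windows) and cover 250 bases before to 50 bases after an annotated start, on the strand of the gene. The TGM5 stretch is chr15:43266879-43267178 (minus strand), the TGM7 stretch chr15:43302206-43302505 (minus strand), the SEMA4B stretch chr15:90184670-90184969 (plus strand, the first of its 3 annotated starts) and the GDPGP1 stretch chr15:90233959-90234258 (plus strand). Capitals mark ACGTG or GCGTG on either strand, the core letters that HIF dimers are known to bind.
TGM5: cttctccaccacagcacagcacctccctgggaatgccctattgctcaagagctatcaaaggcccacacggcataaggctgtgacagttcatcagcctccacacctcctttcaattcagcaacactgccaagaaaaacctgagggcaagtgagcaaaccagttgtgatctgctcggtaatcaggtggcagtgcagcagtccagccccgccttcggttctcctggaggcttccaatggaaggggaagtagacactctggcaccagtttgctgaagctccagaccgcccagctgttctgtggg
TGM7: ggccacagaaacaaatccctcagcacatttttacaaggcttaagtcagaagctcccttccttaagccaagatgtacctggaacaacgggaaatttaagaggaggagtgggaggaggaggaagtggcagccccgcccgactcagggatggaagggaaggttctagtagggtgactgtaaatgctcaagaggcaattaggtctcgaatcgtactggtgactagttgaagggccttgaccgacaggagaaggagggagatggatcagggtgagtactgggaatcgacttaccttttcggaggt
SEMA4B: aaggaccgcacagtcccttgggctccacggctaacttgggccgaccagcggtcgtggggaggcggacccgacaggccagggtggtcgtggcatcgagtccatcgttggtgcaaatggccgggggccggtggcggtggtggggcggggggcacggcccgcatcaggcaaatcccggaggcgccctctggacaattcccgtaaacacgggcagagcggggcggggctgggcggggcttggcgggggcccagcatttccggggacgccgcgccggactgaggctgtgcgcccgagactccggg
GDPGP1: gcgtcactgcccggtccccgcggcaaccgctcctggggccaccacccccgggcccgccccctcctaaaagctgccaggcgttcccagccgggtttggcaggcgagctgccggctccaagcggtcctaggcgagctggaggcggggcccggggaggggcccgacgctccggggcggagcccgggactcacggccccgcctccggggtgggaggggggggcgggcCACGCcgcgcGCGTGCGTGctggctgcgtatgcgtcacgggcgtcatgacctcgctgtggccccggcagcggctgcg
The GDPGP1 stretch held 3 matches, all to GCGTG. A pair of them overlap each other on the gene's strand and are written as 1 run of capitals. The TGM5, TGM7 and SEMA4B stretches held 0. CIB1 runs the other way from GDPGP1, and 2 of its 3 annotated stretches share 233 and 153 bases with that of GDPGP1, so that both genes start from one stretch of DNA. Either motif was found in 48.4% of all 35116 RefSeq promoter stretches of this length, ACGTG in 21.4% and GCGTG in 36.5%. A match is a string of letters and no measured binding site.

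Across the chromosome, SON signal was organised in long blocks. No window lay above the floor before position 20210001, the part that covers the unassembled short arm. From there on 40.6% of windows were at the floor and 51.2% were measured. Over all members, the shares were 52.6% at the floor and 40.9% measured, against 61.2% and 33.3% for the other autosomes. Once the empty start of each chromosome is set aside, chromosome 15 stood 17th of the 22 autosomes when these are ordered from the highest floor share to the lowest. The measured windows of chromosome 15 had a median level of 7.94 with PT2399 and 8.03 with DMSO, against 8.59 and 8.70 on the other autosomes. Very high levels were less common here: 4.48% of members reached a mean of 9.65, the level that marks the top 10% of autosomal windows, against 10.2% of other autosomal windows.

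**Figure D1:**
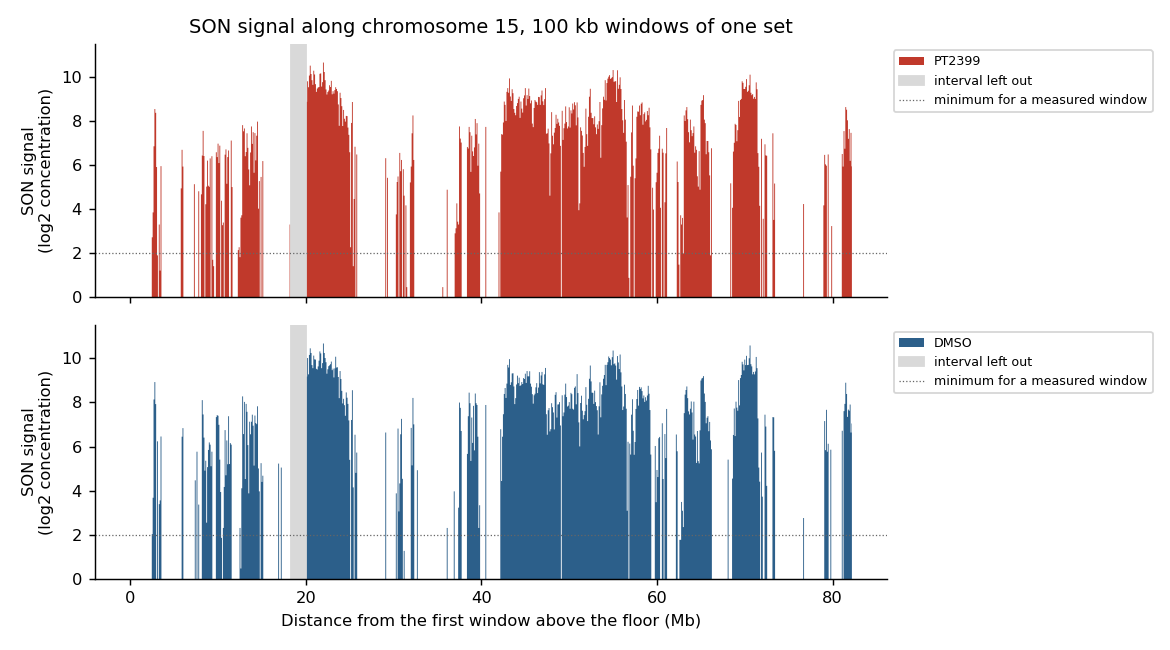
SON signal (log2 concentration) of PT2399 (top, red) and DMSO (bottom, blue) in 805 100 kb windows of one set, plotted by distance from the first window above the floor; the grey band is the interval left out and the dotted line the minimum of 2 for a measured window. Both treatments show the same blocks, the tallest of them just after the grey band.

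Most of the signal sat in 4 blocks of at least 3 Mb, which held 69.8% of all measured windows. Blocks were runs of 10 kb steps in which no more than 50% of the windows covering a step were at the floor. The longest ran from 62260001 to 79560000, a length of 17.3 Mb, and its 1506 measured windows had a median level of 8.47 with PT2399 and 8.47 with DMSO. The block with the highest level began inside the interval left out and ended at 46000000. Its members, from 40200001 on, had medians of 9.42 with PT2399 and 9.58 with DMSO. The third high block ran from 88730001 to 91850000, with 9.14 for PT2399 and 9.37 for DMSO. The fourth, from 82330001 to 86400000, was lower, with 7.19 for PT2399 and 7.41 for DMSO. The longest run at the floor after the empty start lay at 93630001 to 99140000, a length of 5.51 Mb with 2 measured windows out of 488. The next were 52850001 to 56170000 and 46000001 to 49180000, of 3.32 and 3.18 Mb, each with 0 measured windows.

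On the 2 sides of the interval left out the levels lay far apart, though the change between them was not observed. The last window before the interval left out, at 38400001 to 38500000, stood at -0.11 with PT2399 and -0.07 with DMSO, which is the floor in both. The first window after it, at 40200001 to 40300000, stood at 8.90 and 9.20. The 5 windows with the highest mean level all lay between 42080001 and 42230000, in the block that follows. The highest, at 42100001 to 42200000, had 10.68 with PT2399 and 10.70 with DMSO, a change of -0.02 (FDR 0.939, authors' deposited table). The strongest signal among the members was thus not at a window that passed the test.

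With PT2399, SON signal on chromosome 15 was slightly lower as deposited. The median change over the 3708 measured windows was -0.09 (quartiles -0.35 and 0.17; -0.10 to -0.08 over the 9 sets), and 59.3% of them were lower, against -0.13 (quartiles -0.33 and 0.07) and 68.2% on the other autosomes. On the linear scale the PT2399 signal summed over these windows was 94.3% of the DMSO sum, against 91.8% on the other autosomes. How the treatments were scaled to each other is not stated in those sources that were used. Measured autosomal windows as a whole moved by -0.13, and relative to that shift the median of chromosome 15 was 0.04, so that its sign turns. Weighted to the same mix of mean levels, in 20 level steps, the other autosomes had a median change of -0.13, and chromosome 15 stood 0.04 above it (0.03 to 0.05 over the sets). In this level-matched difference the 22 autosomes ran from -0.06 to 0.14, the highest being chromosome 18, and chromosome 15 held rank 7 from the top. Windows along a chromosome are not independent and values per library were not used, so no test of this difference was made.

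**Figure D2:**
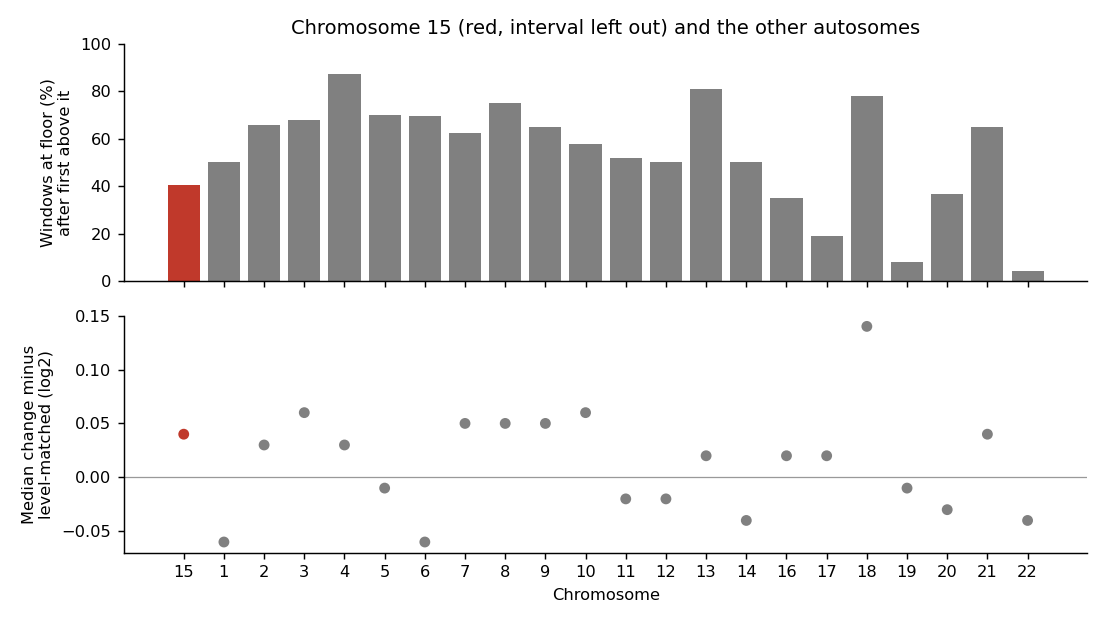
Chromosome 15 (red, left) and the other autosomes (grey): the upper panel gives the share of 100 kb windows at the floor after the first window above it, the lower panel the median change of measured windows minus the level-matched median of all other autosomes (log2). Chromosome 15 has 40.6% of windows at the floor and a difference of 0.04, within the range from -0.06 to 0.14 over the 22 autosomes.

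The spread of the change across windows depended on the level. Among members with a mean level from 2 to 6 the quartile range of the change was 1.97 wide (503 windows), and it was 0.90 between 6 and 8 (1348 windows), 0.41 between 8 and 9 (911 windows) and 0.26 from 9 up (946 windows). On the other autosomes these widths were 2.11, 1.06, 0.47 and 0.18. Of members at level 9 or above 70.0% were lower with PT2399, against 82.3% of such windows elsewhere, with median changes of -0.10 and -0.13. Between 8 and 9 the median change was -0.05 on chromosome 15 and -0.12 elsewhere. A change of 0.5 is therefore small against the spread of windows near level 6 and large against that near level 9.

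**Figure D3:**
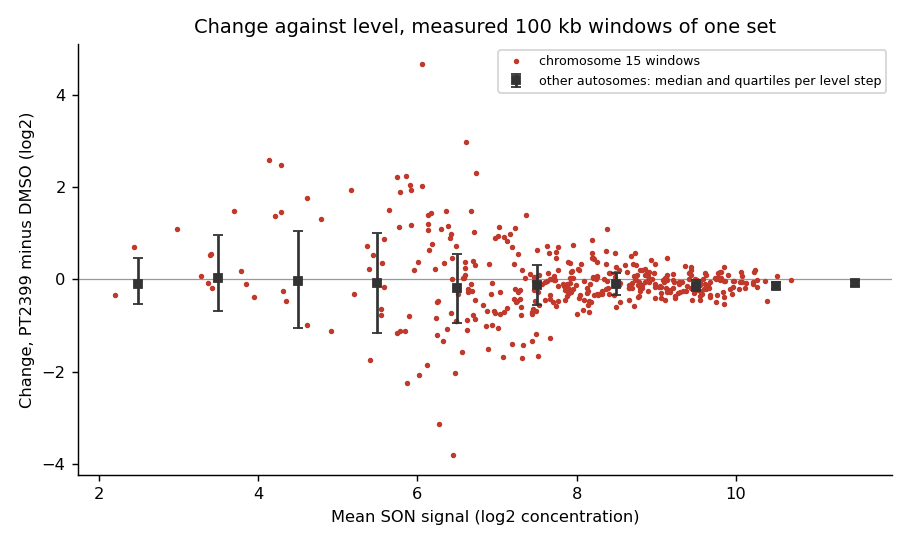
Change with PT2399 (log2) against mean SON level (log2 concentration) for the measured 100 kb windows of one set on chromosome 15 (red points); grey squares and bars are the median and quartiles of the other autosomes per level step. The points fan out below a level of 8, as do the quartiles of the other autosomes.

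By 5 Mb bin, the change varied more than the chromosome's median shows. A window belongs to the bin that holds its midpoint, and bins with at least 20 measured windows are described. Of 16 such bins, 14 had a median below 0 and 2 above 0 as deposited, from -0.61 to 0.36, while the level-matched medians of the other autosomes lay between -0.14 and -0.11 for all 16. Set against these, 7 bins lay below the matched median and 9 above. In 7 bins all 9 sets gave a median below 0, in 1 bin all gave one above 0, and in 8 bins the sets fell on both sides of 0.

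The 2 bins with the highest SON signal differed in their change. In the bin at 90 to 95 Mb the median level was 9.20 with PT2399 and 9.48 with DMSO, and the change was -0.28 (quartiles -0.41 and -0.13; -0.35 to -0.23 over the sets). In the bin at 40 to 45 Mb the median level was 9.52 with PT2399 and 9.65 with DMSO, and the change was -0.09 (quartiles -0.21 and 0.04; -0.11 to -0.07 over the sets). The sets of the 2 bins do not overlap, but they are no replicates, and the difference was not tested. Relative to the shift of all measured autosomal windows, the bin at 90 to 95 Mb stood at -0.15 and the bin at 40 to 45 Mb at 0.03, so that the sign of the second bin turns. Of measured windows 81.5% were lower in the first of these bins and 68.2% in the second.

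The 4 bins from 60 to 80 Mb, which hold the longest block, stayed near 0. Their medians were -0.02, -0.07, -0.10 and 0.01, with quartiles that ran at most from -0.36 to 0.18. After the shift of all measured windows is taken off, they stood at 0.11, 0.06, 0.03 and 0.13. The bin at 45 to 50 Mb was the only one above 0 in all 9 sets, at 0.36 (0.21 to 0.48), with a median level of 6.72 for PT2399 and 6.34 for DMSO. It rests on 75 measured windows of 450, and 0 of its windows passed the FDR of 0.01 in either direction in the authors' deposited tables. With bins shifted by 2.5 Mb the highest median of any bin was 0.05, and with 10 Mb bins it was 0.00, so this value depends on where the bin starts. The lowest median, -0.61 at 95 to 100 Mb, came from 46 measured windows at a level near 6, with sets from -1.58 to 0.20.

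At the authors' FDR of at most 0.01, the authors' deposited tables held 23 measured 100 kb windows of chromosome 15 with lower signal after PT2399 and 5 with higher signal, that is 0.620% and 0.135% of its 3708 measured windows. Over the whole series 1.55% of measured windows were lower and 0.0853% higher by the same rule. The share of lower windows was thus under the background and that of higher windows rests on 5 windows in 3 places. Counting windows below the minimum as well, 35 members were lower (0.387%) and 9 higher (0.0994%) in the authors' deposited tables. Over the series the shares were 0.614% and 0.139%, which count the interval left out as well. With that interval kept in, chromosome 15 had 35 lower and 22 higher windows. The count of higher windows therefore depends on leaving it out. The 23 lower windows merged into 6 regions and the 5 higher ones into 3. The authors' deposited list of lower windows held the same 23 windows. All of the lower windows at a mean level of 9 or more, 20 of the 23, lay in the blocks ending at 46000000 and 91850000. They were 2.11% of the measured members at that level, against 3.19% of such windows on the other autosomes.

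The measured lower region with the lowest FDR lay at 90650001 to 90870000. All 12 of the 100 kb windows that fit in it were called in the authors' deposited tables, with PT2399 levels from 9.61 to 10.13 and DMSO levels from 10.10 to 10.61. Its best window, at 90680001 to 90780000, stood at 10.08 with PT2399 and 10.61 with DMSO, so that the change was -0.53 and 69.3% of the DMSO signal remained (FDR 1.47e-06, authors' deposited table). Worked back from the p-value in the authors' deposited table, the standard error was about 0.09, for an approximate 95% interval from -0.71 to -0.35. The window was chosen for its low FDR, so its change may be overstated and the interval may cover less than 95%. The neighbouring windows of the same set, 100 kb to either side of the best window, changed by -0.29 and -0.41 without passing (FDR 0.118 and 0.0508, authors' deposited tables). Both overlap the region in part, so they are not flanks outside it. All 28 windows that touch the region were lower with PT2399. They include the 12 called windows, and the rest overlap the region and share reads with these.

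A second lower region, at 43500001 to 43650000, was narrower. Its 6 windows were all called in the authors' deposited tables, with PT2399 levels from 9.30 to 9.56 and DMSO levels from 9.82 to 10.10. The best window, 43500001 to 43600000, had 9.56 with PT2399 and 10.10 with DMSO, a change of -0.54 with an approximate standard error of 0.12 (FDR 0.000646, authors' deposited table). The windows 100 kb to either side of it changed by -0.14 and -0.13 (FDR 0.638 and 0.758, authors' deposited tables), close to the -0.09 of the whole bin. The first of these lies outside the region and the second overlaps it in part. The window was above both neighbours in either treatment: these stood at 9.43 and 9.48 with PT2399, and at 9.57 and 9.61 with DMSO.

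**Figure D4:**
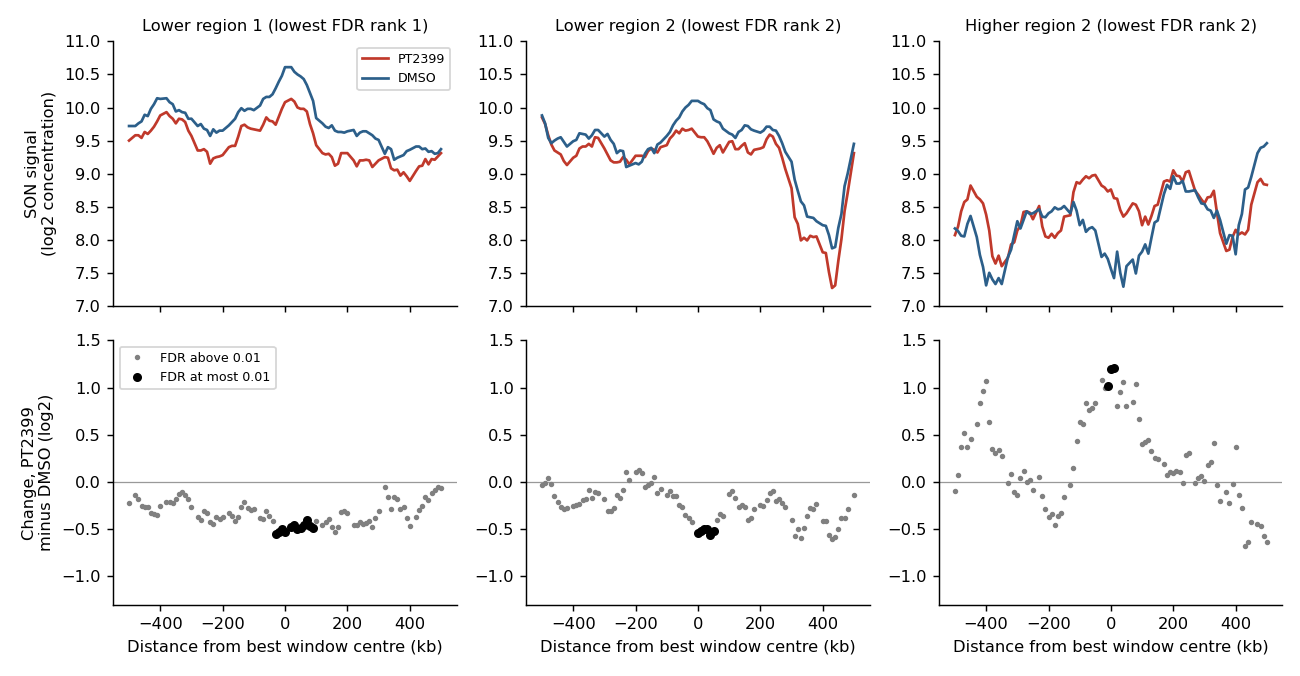
SON level (upper panels, log2 concentration; PT2399 red, DMSO blue) and change (lower panels, log2) in all 100 kb windows within 500 kb of the best window of 3 regions: the lower regions at 90650001 and 43500001 and the higher region at 70520001. Black points passed the authors' FDR of 0.01; the first lower region sits in a wider stretch of lower signal, and the second and the higher region have changes near 0 within 300 kb on at least 1 side.

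The other 4 lower regions rested on 1 or 2 called windows each. At 91270001 to 91370000 the level was 8.65 with PT2399 and 9.33 with DMSO, a change of -0.68 (FDR 0.00986, authors' deposited table). At 90100001 to 90200000 it was 9.48 with PT2399 and 9.97 with DMSO, a change of -0.49 (FDR 0.00629, authors' deposited table). Both lie in the same block as the region at 90650001, so that 14 of the 23 lower windows came from 3.12 Mb. At 28300001 to 28400000, in the part of the long arm that is nearer the centromere, PT2399 had 6.46 and DMSO 8.13, a change of -1.67 with an approximate standard error of 0.44 (FDR 0.00703, authors' deposited table). Its neighbour 100 kb before had 4.70 with PT2399 and the floor with DMSO, the opposite direction (FDR 0.242, authors' deposited table). At 73740001 to 73860000 the longest block held a dip that was deeper with PT2399. The best window had 4.72 with PT2399 and 7.86 with DMSO (change -3.14, FDR 0.00299, authors' deposited table). Windows 100 kb to either side of it changed by 0.03 and -0.07, and the first of these overlaps the region in part. With DMSO these neighbours stood at 8.10 and 8.65. The window between the 2 called ones, 73750001 to 73850000, did not pass (change -2.32, FDR 0.274, authors' deposited table).

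Of the 3 higher regions, 1 had signal on both sides. At 70520001 to 70640000 the 3 called windows had PT2399 levels from 8.63 to 8.76 and DMSO levels from 7.42 to 7.71. The best window, 70530001 to 70630000, had 8.76 with PT2399 and 7.56 with DMSO, a change of 1.20 or 2.30-fold, with an approximate 95% interval from 0.65 to 1.75 (FDR 0.00199, authors' deposited table). This window too was chosen for its low FDR, so its change may be overstated and the interval may cover less than 95%. All 19 windows that touch this region were higher with PT2399. They include the 3 called windows, and the rest overlap the region and share reads with these. With DMSO the best window was a dip between neighbours at 8.22 and 7.82, which overlap the region in part. PT2399 levels of 8.85 and 8.22 there did not show it. The other 2 started near the minimum. At 80260001 to 80360000 PT2399 had 7.52 and DMSO 2.20, and at 58520001 to 58620000 PT2399 had 7.12 and DMSO 2.22 (FDR 0.000515 and 0.00567, authors' deposited tables). Such folds carry little signal on the DMSO side, and of the 17 windows that touch each of these regions 11 and 12 were higher.

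After the shift of all measured windows was taken off, few of these calls were left. With the implied standard errors, 20 windows were lower and 4 higher without recentring (83.3% lower), and 1 lower and 3 higher after it (25% lower). Over the whole series the same steps gave 1262 lower and 61 higher windows (1.4% and 0.0676% of measured ones) before recentring, and 146 lower and 95 higher after it (0.162% and 0.105%, with 60.6% of calls lower), so most lower calls were lost genome-wide as well. The lower one was the best window of the region at 90650001, with a recentred change of -0.40 and an adjusted p of 0.00439 (Benjamini-Hochberg over the measured windows of its set). The region at 43500001 had -0.42 and an adjusted p of 0.0394, and the one at 73740001 had -3.01 and 0.016, both above the threshold of 0.01. The higher region at 70520001 kept 2 of its 3 windows, with an adjusted p of 0.00182, though recentring adds to every higher change and is no check on it. The implied errors rest on a normal approximation.

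At 50 kb, 7 measured windows were lower and 0 higher in the authors' deposited tables, 0.0968% and 0% of 7229, against 0.357% and 0.0291% over the series. At an unadjusted p under 0.05 in the DiffBind tables, 367 of these windows were lower and 180 higher (5.08% and 2.49%), against 9.72% and 1.79% over the series. At 100 kb the same rule gave 256 lower and 99 higher (6.9% and 2.67%), against 15.3% and 1.95%. The 7 formed 2 regions, inside those at 43500001 and 90650001, which held 3 and 4 called windows. Over all 50 kb windows inside each of these regions the median change was -0.49 (19 windows) and -0.47 (32 windows). Inside the higher region at 70520001 the median over 14 windows was 1.19, with a lowest FDR of 0.0339 in the authors' deposited tables. Over all 50 kb members, 17 windows were lower (0.0938%) and 11 higher (0.0607%) in the authors' deposited tables, against 0.176% and 0.0503% over the series. The 50 kb and 100 kb windows come from the same reads.

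A further 12 windows were called lower and 4 higher in which 1 treatment was below the minimum, and in all 16 that treatment was at the floor. The other treatment stood at 6.52 to 7.32 with DMSO for the lower ones and at 6.63 to 7.25 with PT2399 for the higher ones. They formed 5 lower and 4 higher regions. The higher region at 80240001 to 80340000 overlaps the measured one at 80260001 to 80360000, so that all higher windows together merge into 6 regions. The lower one with the lowest FDR was at 93420001 to 93560000, just before the 5.51 Mb run at the floor. It had -0.11 with PT2399 and 7.32 with DMSO at its best window (FDR 6.97e-05, authors' deposited table), and 7 windows of 50 kb were called there as well. The higher one with the lowest FDR was at 84570001 to 84670000, with 7.25 for PT2399 and -0.07 for DMSO (FDR 0.000188, authors' deposited table). Whatever the FDR, 261 members were measured with PT2399 and at the floor with DMSO, or 2.88% of members, and 190 (2.10%) the other way round, against 2.41% and 2.11% on the other autosomes.

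The authors' deposited gene list for the lower 100 kb windows held 13 genes of chromosome 15, or 2.11% of its 617 protein-coding genes, against 4.27% of all protein-coding genes. They form 4 runs of neighbours in RefSeq order. The first is OCA2 alone, a melanosome protein needed for pigment. The second is EPB42, a protein of the red cell membrane, TGM5, TGM7, LCMT2, a tRNA-modifying enzyme, and ADAL, an adenosine deaminase-like enzyme now called MAPDA. The third is TICRR, which is needed to start DNA replication, and KIF7, a kinesin of Hedgehog signalling. The fourth is SEMA4B, CIB1, GDPGP1, TTLL13, a tubulin-modifying enzyme, and NGRN, a mitochondrial protein.

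Genes were not placed on hg19 here, but the order of the list ties some runs to regions. The 50 kb list held 5 of the 13 genes, TGM5 and TGM7 from the second run and GDPGP1, CIB1 and SEMA4B from the fourth, and there were 2 lower measured regions at 50 kb. By order along the chromosome the second run goes with the region at 43500001 and the fourth with the one at 90650001. OCA2 comes before the second run, and the region at 28300001 is the only lower measured one before 43500001. The promoter stretches shown above therefore go with the 2 lower regions that held called measured windows at both sizes.

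The 50 kb list held 0.81% of the chromosome's protein-coding genes, against 1.1% of all. Of 61 genes in 6 groups chosen by function, 1 was in the authors' deposited 100 kb list (1.64%, Wilson 95% interval 0.29% to 8.72%), namely OCA2 from the 11 genes of the imprinted and GABA receptor domain, and 0 were in the 50 kb list. The interval counts genes as independent, though listed genes form runs of neighbours, so it may be too narrow. It was not used as a test against the chromosome's own share of 2.11%. Among the 10 genes linked to hypoxia or HIF were PKM, a glycolytic enzyme, and CA12, a carbonic anhydrase. FURIN, a protease, and ARNT2, a relative of the HIF partner ARNT, were also among them. These 10 had 0 in either list, and so few genes, counted as independent, would allow a share of up to 27.8%. The 11 genes grouped as renal tubule and kidney held SLC12A1, the salt cotransporter of the loop of Henle. They also held GATM, an enzyme of creatine synthesis, and AQP9, FBN1 and SLC24A5. How closely each is tied to the kidney was not checked, and these 11 also had 0. So did the 4 enzymes that include CYP1A1 and CYP19A1, the 10 cell cycle and repair genes and the 15 signalling genes, among them SMAD3, MAP2K1 and IGF1R. Absence from the list says that no lower window was assigned to the gene, and not that its signal was measured and unchanged. Nor does it place the gene outside the lower windows. Genes were not placed on hg19, so the groups may also hold genes of the interval left out. The listed genes form 4 runs while the measured lower regions number 6, so a lower region may be without a listed gene.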

How the data were processed

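SON TSA-seq libraries of 786-O cells treated with PT2399 or DMSO were compared, 2 pulldowns and 2 inputs a treatment. Per the submitters' processing notes, Bowtie2, Picard, DiffBind and bedtools were used with build hg19; no version or setting is stated, nor how libraries were scaled or inputs used. Deposited values are on a log2 scale: the tables hold, per the file headers, log2 concentrations per window and treatment, with a log2 fold. Per the file headers they also hold a p-value and an FDR per window. The deposited fold equals DMSO minus PT2399 to within 0.01, and changes here have the opposite sign. The other deposited files list window positions or gene symbols and hold no measurement.

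The authors' FDR of at most 0.01 was the test, and p-values then measure only the spread between these libraries, which may be technical. Called windows that overlap by at least 1 bp were merged over the 9 sets. Regions were to be named by lowest FDR, 8 a direction, and genes where a deposited list held them; the 6 gene groups were counted whatever they showed. Members, groups and tests were chosen with earlier results of these data known, and blocks after seeing the profile. Level matching weighted other autosomal windows to the same mix of 20 steps of mean level. Implied standard errors are the absolute fold over the normal quantile of the p-value (the median of the level step where the p-value was at least 0.5 or the fold below 0.1). Both were run on simulated data with independent noise per window, and for the implied errors the noise was drawn from those same errors. Neither run shows how they do where neighbouring windows are correlated. Gene symbols were matched through a RefSeq table (GRCh38.p14): 982 of 1023 and 251 of 258. Value columns that could not be mapped numbered 0. Software: matplotlib 3.10.9, scipy 1.17.1, pandas 2.3.3, numpy 2.4.6 under Python 3.11.15.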

Additional observations from a re-analysis of the deposited data

How the results depend on the processing

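Counts here include windows below the minimum level, in the order lower windows, higher windows, lower regions, higher regions: 35, 9, 11 and 6. They became 75, 24, 24 and 9 at an FDR of 0.05 and 12, 3, 4 and 2 at 0.001. Measured windows alone gave 23, 5, 6 and 3, with implied errors 20, 4, 5 and 3, and with recentring as well 1, 3, 1 and 2. Single sets gave 2 to 5 lower windows in 2 to 5 regions and 0 to 4 higher windows in 0 to 4 regions, having fewer windows. At 50 kb there were 17, 11, 5 and 6, and among measured windows 7, 0, 2 and 0. Keeping the interval in gave 22 higher windows. A minimum change of 0.5 and Benjamini-Hochberg over the 9 sets together left all 4 counts within 1.5 times. Settings with implied errors, measured 50 kb windows or a bin left out were added after seeing the data.

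The median change of -0.09 lay between -0.10 and -0.08 under every alternative but recentring, which gave 0.04. The level-matched difference of 0.04 lay between 0.03 and 0.05 except without the bin at 90 to 95 Mb, where it was 0.06. The median mean level was 8.12 at a minimum of 4, 7.71 with a mean concentration of at least 2, 7.03 at 50 kb and 7.77 as a mean; smaller windows hold less signal, and the cause of the others was not tested beyond the windows they admit. The floor share of 52.6% was 40.6% from the first window above the floor. Of 48 alternative values for the 16 bins, 9 left the range of the sets, 8 of them by recentring. All 18 alternative values for the 9 regions kept their direction, but this was close to fixed in advance. Recentring took off about -0.13, smaller in size than every change it was applied to. The 50 kb windows lie inside the regions and come from the same reads. No paired analysis was possible because values per library were not used here; leaving out a replicate could not be run for the same reason.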
